A study of Rattus norvegicus with 21 samples.

Results

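The comparison described here set the anterior pituitary glands of Copenhagen (COP) rats treated with diethylstilbestrol (DES) against those of Brown Norway (BN) rats given the same treatment. Its members were the 4 arrays titled COP DES-treated and the 4 titled BN DES-treated, 8 of the 21 arrays of a series that also covered ACI rats and untreated rats of each strain. Each array, an Affymetrix Rat Genome 230 2.0, measured RNA of anterior pituitary tissue by the brightness of 31099 probe sets, each a group of short probes. A probe set is meant for 1 transcript or, in some cases, matches several similar ones. All but 57 Affymetrix control probe sets, 31042 in number, entered the comparison. COP DES rats were males from Charles River that received a silastic tube with 5 mg of DES under the skin when 9 weeks old and were killed when 21 weeks old. BN DES rats were males from Harlan with the same implant at the same ages. COP controls and BN controls, 3 arrays each, were males of the same sources and ages that carried an empty tube. Every rat had also received BrdU, a label of DNA synthesis, at 50 mg/kg before death. The supplier therefore differed along with the strain, and the effects of these 2 cannot be told apart. By the design of the series every array is a separate biological replicate, but notes attached to the samples speak of 3 independent replicates for a DES group and 2 for a control group, so the p values below measure only the spread between these arrays.

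DES is a synthetic estrogen. In the rat anterior pituitary, estrogens act through the estrogen receptor on lactotrophs, the cells that make prolactin, and drive both prolactin synthesis and cell division, which enlarges the gland. Dopamine from the hypothalamus restrains the same cells through the D2 receptor. Inbred rat strains differ in this growth: BN is known as a strain of low response, and ACI, a strain of strong response, was bred in part from COP. Loci for this growth have also been mapped in crosses of ACI with COP. The descent does not give the response of COP, and gland growth was not among the values used here. The gland also holds somatotrophs (growth hormone), gonadotrophs (luteinizing and follicle-stimulating hormone), thyrotrophs (thyroid-stimulating hormone), corticotrophs (the POMC peptides) and folliculostellate cells, which make no classical hormone.

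Values are signals in the array units of the deposited table, in which every array had been scaled to the same trimmed mean. Differences are COP minus BN on the scale of log2(signal + 16), on which 1 is a 2-fold difference at high signals and understates the fold at low ones, and each is followed by its standard error (SE). The word called is used for a Benjamini-Hochberg adjusted p below 0.05 in limma, fitted to the 21 arrays together, and where a gene had several probe sets, that with the highest mean log2(signal + 16) over all 21 arrays stood for it. The 8 arrays had median signals between 127.7 and 139.9. The correlation between arrays of 1 group was 0.959 to 0.975 in COP DES and 0.936 to 0.978 in BN DES, against 0.911 to 0.947 between the groups. BN DES arrays numbered 1 and 2 correlated at 0.978 with each other and at 0.936 to 0.944 with BN DES arrays 3 and 4. BN DES 3 stood apart in a spiked-in control, cre, at 60933 against 28940 to 41175 on the other 7 arrays. The ratio of 3′ to 5′ beta-actin signal, a sign of RNA length, was 2.93 to 3.33 in COP DES and 2.61 to 3.52 in BN DES, while BN control 3 stood apart at 7.24. Large differences are therefore also given within the arrays numbered 1 and 2 and within those numbered 3 and 4.

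After DES, the COP and BN glands differed at 4543 of 31042 probe sets (14.6%), of which 2114 (6.81%) were higher and 2429 (7.82%) lower in COP. Among 14217 genes, each read by 1 probe set, 2794 (19.7%) were called, 1396 (9.82%) higher and 1398 (9.83%) lower, and 710 (4.99%) of these differed at least 2-fold. For 2844 genes (20%) the 4 COP values did not overlap the 4 BN values. The median difference over all genes was -0.01. With each array centred on its median, the share of called probe sets that were higher in COP was 56.4%, against 46.5% as reported. The 3 COP controls and 3 BN controls differed at 621 genes (4.37%), with 288 (2.03%) higher and 333 (2.34%) lower in COP. The control signals do not enter the size of the difference after DES. They do enter its test, because the fit estimated the spread between arrays from all groups together. Of the genes called after DES, 318 were called in the same direction in controls, which is 11.4% of the genes called after DES and 51.2% of those called in controls. A further 52 genes were called in opposite directions, 1.86% of the one list and 8.37% of the other. The difference in response, (COP DES minus COP control) minus (BN DES minus BN control), shares the 8 DES arrays and tests whether the strain difference after DES departs from that in controls. It was called for 671 genes (4.72%), 377 (2.65%) in the direction of COP and 294 (2.07%) in that of BN.

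**Figure D1:**
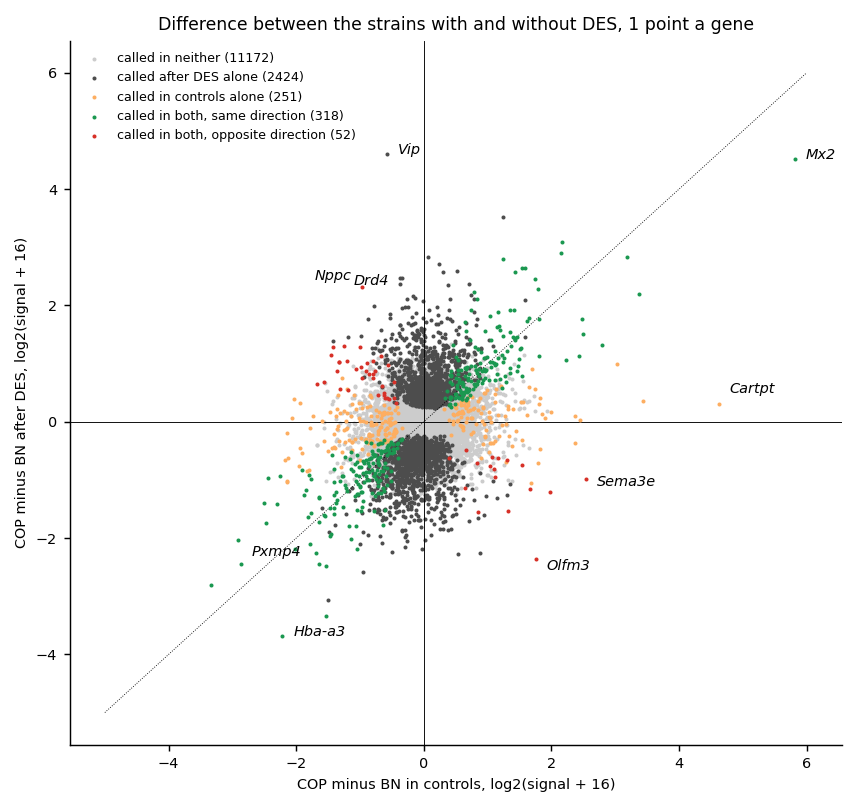
COP minus BN after DES (vertical axis) against COP minus BN in controls (horizontal axis), both in log2(signal + 16), with 1 point for each of 14217 genes, colored by where it was called, and a dotted line where both differences are equal. Vip lies at 4.61 after DES and -0.58 in controls, Mx2 at 4.51 and 5.81, and Olfm3 lies on opposite sides at -2.36 and 1.76.

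Among the genes, each read by the probe set that stood for it, the largest difference was that of Vip, the precursor of vasoactive intestinal peptide, a neuropeptide that stimulates prolactin release. Its signal, at probe set 1377146_at, was 11807, 12029, 10562 and 14205 in COP DES arrays, against 444, 384, 516 and 598 in BN DES arrays. All 4 COP values lay above all 4 BN values, by a log2 difference of 4.61 ± 0.23 (adjusted p = 6.07e-12). In controls Vip averaged 59.3 ± 18.8 in COP and 94.3 ± 7.02 in BN (SD, n = 3 each), a difference of -0.58 that was not called (adjusted p = 0.35). The difference in response was 5.19 (adjusted p = 1.69e-08). Within arrays 1 and 2 the difference after DES was 4.80 and within arrays 3 and 4 it was 4.42. These are bulk glands, in which more cells of a type and more RNA per cell cannot be told apart.

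A group of other genes had low signals in both control groups and a higher signal in COP than in BN after DES. Drd4, the dopamine D4 receptor, gave 3475, 3429.9, 3757 and 3049 in COP DES arrays, against 641, 624, 473 and 699 in BN DES arrays. Its controls averaged 72.5 ± 17.2 in COP and 97.3 ± 5.27 in BN. All 3 probe sets of Drd4 were called, at 2.47 ± 0.15, 2.42 ± 0.25 and 2.97 ± 0.23, and the difference in response was called for all 3, the probe set that stood for the gene giving 2.85 (adjusted p = 2.33e-07). Nppc, which encodes C-type natriuretic peptide, gave 3548, 3061, 3394 and 2706 in COP DES arrays, against 719, 826, 407 and 612 in BN DES arrays. The difference was 2.32 ± 0.21 (adjusted p = 4.33e-08), whereas in controls Nppc was lower in COP, at 59, 31.6 and 92.7, against 119, 107 and 159.7 in BN (-0.97, adjusted p = 0.0205). Mzb1, an endoplasmic reticulum protein known from B cells and plasma cells, gave 4331, 3635, 2914 and 3218 in COP DES arrays, against 566, 423, 618 and 979 in BN DES arrays. In controls it averaged 44.3 in COP and 58.4 in BN. The difference after DES was 2.47 ± 0.20 (adjusted p = 9.05e-09), while Jchain and Cd79b, also of plasma and B cells, were not called (-0.19 and 0.20, adjusted p = 0.797 and 0.849).

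Sox7, a transcription factor of the SoxF group known from endothelium, averaged 1199 ± 90.7 in COP DES and 169 ± 9.73 in BN DES (SD, n = 4 each), a difference of 2.72 ± 0.17. The control means of Sox7 were 178 in COP and 147 in BN. Of 13 endothelial and pericyte genes, 12 were not called, with differences of -0.59 to 0.42, and Kdr was lower in COP (-0.72). Tnfrsf11b, the decoy receptor osteoprotegerin, and Plaur, the urokinase receptor, followed the same order. Tnfrsf11b gave 86, 73.8, 73.1 and 60.6 in COP DES arrays, against 2.20, 20.8, 3.40 and 3.20 in BN DES arrays, and Plaur averaged 557 ± 79.4 in COP DES and 119 ± 73.9 in BN DES with control means of 6.37 in COP and 14.9 in BN. A 2nd probe set of Plaur was not called (-0.44, adjusted p = 0.541).

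**Figure D2:**
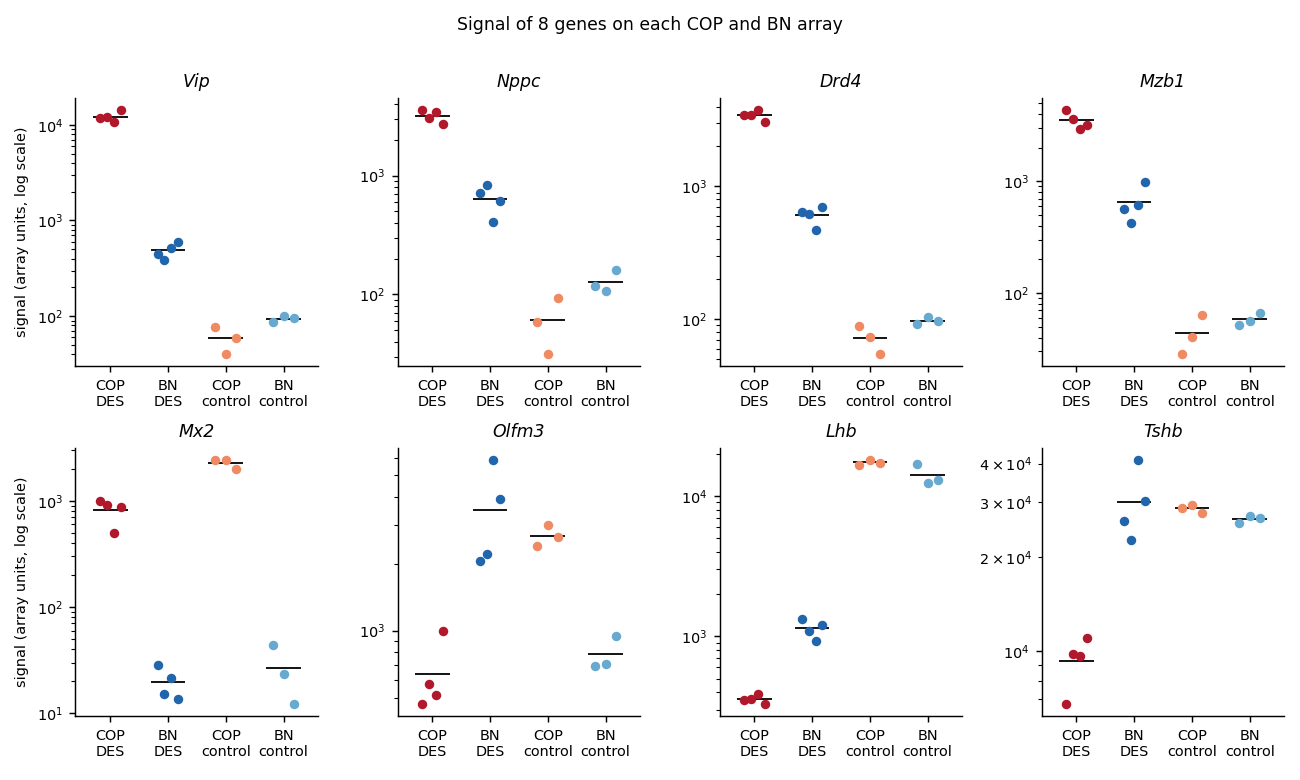
Signal on a log axis (array units) of 8 genes, with 1 point for each COP DES, BN DES, COP control and BN control array and a line at the group mean. Vip, Nppc, Drd4 and Mzb1 are highest on the COP DES arrays and low in both control groups, Mx2 is high in both COP groups, and Olfm3, Lhb and Tshb are lower on every COP DES array than on every BN DES array.

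The 250 bases before the start of Vip, Drd4, Nppc and Olfm3, described further on, are shown because these 4 genes had called differences after DES and called differences in response. They are RefSeq sequence of the GRCr8 assembly, which was made from a BN rat, written 5′ to 3′ on the strand of the gene. Capitals mark matches on either strand to an estrogen response half-site (GGTCA or TGACC), found in 35.4% of all 33469 windows of this length, or to a cyclic AMP response half-site (TGACG or CGTCA), found in 18.2%. The windows are Vip at chr1:44470230-44470479 on the plus strand, Drd4 at chr1:205825687-205825936 on the plus strand, Nppc at chr9:94772187-94772436 on the minus strand and Olfm3 at chr2:205598709-205598958 on the plus strand.
Vip: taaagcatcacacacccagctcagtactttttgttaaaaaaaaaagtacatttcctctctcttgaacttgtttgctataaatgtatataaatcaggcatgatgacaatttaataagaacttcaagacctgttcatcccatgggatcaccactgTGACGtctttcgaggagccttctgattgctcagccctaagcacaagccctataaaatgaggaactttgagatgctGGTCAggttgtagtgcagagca
Drd4: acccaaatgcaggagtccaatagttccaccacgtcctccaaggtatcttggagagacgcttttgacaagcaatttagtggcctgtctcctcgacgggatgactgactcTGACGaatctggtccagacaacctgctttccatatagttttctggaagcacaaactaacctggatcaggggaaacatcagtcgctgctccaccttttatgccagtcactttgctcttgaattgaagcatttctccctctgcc
Nppc: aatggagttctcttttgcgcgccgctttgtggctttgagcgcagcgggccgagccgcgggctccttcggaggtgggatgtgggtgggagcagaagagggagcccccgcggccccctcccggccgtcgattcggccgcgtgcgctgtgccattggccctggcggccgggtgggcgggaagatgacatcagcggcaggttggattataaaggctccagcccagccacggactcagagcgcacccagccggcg
Olfm3: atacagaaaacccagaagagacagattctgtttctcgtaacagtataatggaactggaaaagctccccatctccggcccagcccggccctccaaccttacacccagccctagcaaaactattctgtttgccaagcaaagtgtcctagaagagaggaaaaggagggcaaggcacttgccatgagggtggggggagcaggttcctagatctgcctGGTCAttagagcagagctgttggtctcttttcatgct
The Vip window held 1 match of each kind, beginning 22 bases (estrogen half-site) and 97 bases (cyclic AMP half-site) before the start. The Drd4 window held a cyclic AMP half-site 142 bases before the start and the Olfm3 window an estrogen half-site 37 bases before it. The Nppc window held neither set of letters. A match describes the letters alone, and the alleles of COP rats were not used here.

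Among the 12 genes with the largest higher signal in COP were also genes that differed between the strains without DES. Mx2, an interferon-induced GTPase, gave 988, 909.8, 497 and 874 in COP DES arrays, against 28.7, 15.2, 21.7 and 13.7 in BN DES arrays. In controls it was 2434, 2413 and 1979 in COP, against 44.3, 23.3 and 12.3 in BN, so that the COP level was lower after DES than without it and the BN level was near the lower end of the array in both. The log2 difference was 4.51 ± 0.26 after DES and 5.81 ± 0.30 in controls. A 2nd probe set of Mx2 averaged 219 ± 89.1 in COP DES and 197 ± 73.8 in BN DES and was not called (0.13 ± 0.28). In controls this 2nd probe set went against the first, at 102 in COP and 449 in BN (adjusted p = 0.0004), with a difference in response of 2.13 (adjusted p = 0.00521). Which of the 2 follows the Mx2 transcript was not tested. RT1-A, a classical class I gene of the rat major histocompatibility complex (MHC), gave 763, 856, 589 and 515 in COP DES arrays, against 74.3, 45.3, 117 and 39.7 in BN DES arrays, with control means of 254 in COP and 41.5 in BN. RT1-A belongs to a family of similar genes, and how its probes divide between them was not tested.

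Krt19, a keratin of epithelia, gave 386, 428, 320.1 and 484 in COP DES arrays, against 72.1, 36.9, 50.3 and 21.1 in BN DES arrays, and its control means were 380.2 in COP and 35.1 in BN. Lrat, the enzyme that esterifies retinol, averaged 142 ± 38.9 in COP DES and 4.80 ± 3.16 in BN DES (SD, n = 4 each), a difference of 2.90 ± 0.33. Both differed in the same direction in controls, by 3.19 and 2.15. Atp10d, a phospholipid-transporting ATPase, was higher in COP after DES (2.79 ± 0.16) and in controls (1.25), and the difference in response was called (1.54, adjusted p = 0.000422). Mmp12, the macrophage metalloelastase, gave 427, 280.1, 278 and 241 in COP DES arrays, against 40.6, 6.90, 42 and 70.1 in BN DES arrays. Spink4 and Slpi, both inhibitors of serine proteases, averaged 1396 ± 268 and 511 ± 112 in COP DES, against 116 ± 58.5 and 95.8 ± 78.8 in BN DES. The remaining 2 genes of the 12 were Cbr3, a carbonyl reductase (2.84 ± 0.45), and Atp6ap1l (2.65 ± 0.21). Slpi differed more within arrays 1 and 2 (3.55) than within arrays 3 and 4 (1.62).

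The most negative difference among the genes, each read by the probe set that stood for it, was that of Hba-a3, an alpha globin gene. Its signal was 323, 349, 310.2 and 234 in COP DES arrays, against 3309, 2858, 5071 and 5545 in BN DES arrays, a difference of -3.68 ± 0.24 (adjusted p = 3.99e-10), and in controls it averaged 222 ± 79.7 in COP and 1082 ± 341 in BN. Hbb, the beta globin gene, was not called: it gave 7014, 10988, 17611 and 21396 in COP DES arrays, against 8446, 6938, 25654 and 29139 in BN DES arrays (-0.15 ± 0.41, adjusted p = 0.877). Its values overlapped widely and were highest on the arrays numbered 3 and 4 of both strains. The red blood cell list did not hold Hba-a3. None of its 5 measured genes was called in either direction. Their summed signal ran from 7401 to 22042 in COP DES and from 7271 to 30074 in BN DES.

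Olfm3, a secreted glycoprotein of the olfactomedin family, lay on opposite sides with and without DES. After DES it gave 469, 575, 513 and 994 in COP DES arrays, against 2049, 2207, 5864 and 3894 in BN DES arrays, whereas in controls it gave 2405, 2973 and 2636 in COP, against 697, 707 and 948 in BN. The log2 difference was -2.36 ± 0.26 after DES and 1.76 ± 0.30 in controls, both called, and the difference in response was -4.11 (adjusted p = 2.15e-06). Sema3e, a class 3 semaphorin, did likewise, with 64.3, 56.8, 29.2 and 73.8 in COP DES arrays, against 86.6, 94.1, 195 and 138 in BN DES arrays, and control means of 1892 in COP and 312 in BN. Dcn, the matrix proteoglycan decorin, gave 348, 286, 281 and 719 in COP DES arrays, against 584, 554, 2103 and 791 in BN DES arrays, so that its groups overlapped, with control means of 7374 in COP and 2373 in BN. The call of Dcn after DES (-1.15 ± 0.32, adjusted p = 0.0155) was lost without COP DES 2 (-1.02), without COP DES 3 (-1.02) and without BN DES 3 (-0.73). A further 5 genes named for their difference in response were lower in COP after DES although their control means were higher in COP, namely Pkhd1l1, a fibrocystin-like protein (-2.27 ± 0.46), Abca8a, a lipid transporter (-2.25), Spock3, a testican proteoglycan (-1.53), Rflna, a filamin-binding protein (-1.26), and Cyp4a8, a fatty acid hydroxylase (-1.21). In controls Spock3 (1.32) and Cyp4a8 (1.98) were called, and Pkhd1l1 (0.53), Abca8a (0.88) and Rflna (1.30) were not. Of these, Rflna was no longer called without any 1 of COP DES 3 (-1.12), COP DES 4 (-1.03), BN DES 1 (-1.09), BN DES 2 (-1.15) or BN DES 4 (-1.09), and Cyp4a8 without COP DES 4 (-1.04), BN DES 1 (-1.08) or BN DES 3 (-1.10).

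Several genes had lower means in COP in both states, though the control differences of Lpal2 (-1.50) and Mrln (-0.95) were not called. Akr1c13, an aldo-keto reductase, gave 24.1, 23, 67.2 and 36.4 in COP DES arrays, against 365, 349, 645 and 762 in BN DES arrays, with control means of 50.7 in COP and 173 in BN. Pxmp4, a peroxisomal membrane protein, averaged 169.5 ± 44.4 in COP DES and 981 ± 187 in BN DES, and a 2nd probe set was called the same way (-1.79). Snx10, a sorting nexin of endosomes, averaged 73.0 ± 32.5 in COP DES and 449 ± 46.5 in BN DES, and its 2nd probe set gave -2.11. Fstl5, a follistatin-like protein, averaged 62.1 ± 22.7 in COP DES and 355 ± 115 in BN DES. Brcc3-ps7 (-2.81 ± 0.36) and Tmsb10-ps5 (-2.44 ± 0.33) are named as pseudogenes, and how much of their signal came from the parent genes was not tested. Mrln, a small inhibitor of the muscle calcium pump, gave 63.3, 126, 95.5 and 62.3 in COP DES arrays, against 368, 348, 1195 and 739 in BN DES arrays, the BN values on arrays 3 and 4 lying above those on arrays 1 and 2. Lpal2 differed by -3.07 ± 0.53, and its COP DES signals lay between 2.2 and 7.6.

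All 24 of these genes were called with the same sign within arrays 1 and 2 and within arrays 3 and 4, where the same arrays had chosen them. Over all genes 19.3% were called within arrays 1 and 2 (9.64% higher, 9.62% lower in COP) and 16.6% within arrays 3 and 4 (8.39% higher, 8.17% lower). In controls 14 of the 24 were called with the same sign, and for 9 the difference in response was called. As a description, the ACI DES mean was nearer to the COP DES mean than to the BN DES mean for 21 of the 24. The other 3 were Hba-a3, at 12968 ± 1599.9 in ACI DES, Vip, at 1683 ± 559, which lies between the COP and BN levels, and Krt19, at 74.0 ± 50.3.

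**Figure D3:**
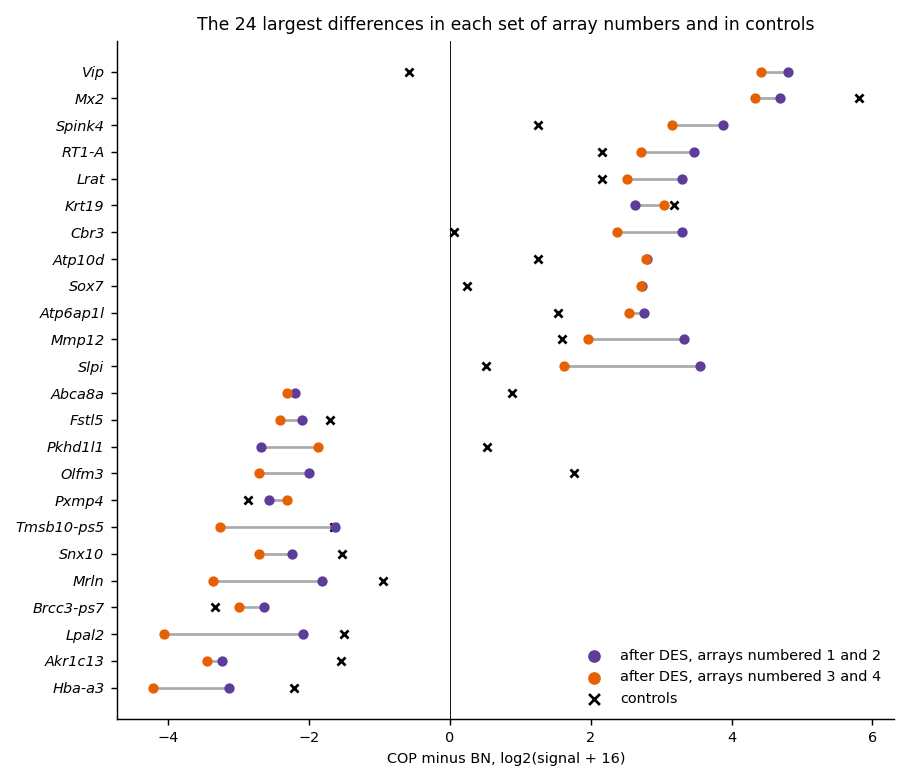
COP minus BN in log2(signal + 16) for the 12 genes with the largest positive and the 12 with the largest negative difference after DES, within the arrays numbered 1 and 2, within those numbered 3 and 4, and in controls (crosses). The 2 filled points of each gene lie on the same side of 0, and the crosses of Vip, Olfm3, Abca8a and Pkhd1l1 lie on the other side.

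Among the pituitary hormones, prolactin, growth hormone and the glycoprotein alpha subunit did not pass the test, whereas the beta subunits and Pomc were lower in COP. Prl, prolactin, gave 40160.0, 46249.9, 51777 and 52575 in COP DES arrays, against 35967, 36523, 68841 and 53748 in BN DES arrays, a difference of 0.01 with a 95% interval of -0.36 to 0.38 (two-sided exact permutation p = 1). Gh1, growth hormone, differed by -0.20 (interval -0.58 to 0.17, exact p = 0.429) and Cga, the shared alpha subunit of the glycoprotein hormones, by -0.21 (interval -0.57 to 0.16, exact p = 0.457). Tshb, the beta subunit of thyroid-stimulating hormone, gave 6758, 9738, 9634 and 10963 in COP DES arrays, against 26142, 22796, 41134 and 30434 in BN DES arrays, while its controls averaged 28714 ± 853 in COP and 26524 ± 655 in BN. The difference was -1.68 ± 0.16 after DES (adjusted p = 1.69e-07, exact p = 0.0286, the smallest that 70 splits allow), and the difference in response was -1.80 (adjusted p = 0.000125).

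Lhb, the beta subunit of luteinizing hormone, gave 352, 355, 388 and 331 in COP DES arrays, against 1329, 1095, 921 and 1203 in BN DES arrays. Both lay far below the controls, which averaged 17303 ± 695 in COP and 14079 ± 2412 in BN, and the strain difference after DES was -1.62 ± 0.12 (adjusted p = 1.72e-09). Fshb, its counterpart in follicle-stimulating hormone, averaged 273 ± 29.6 in COP DES and 394 ± 37.9 in BN DES (-0.51 ± 0.11, adjusted p = 0.00302). Pomc, the precursor of corticotropin, was dim, at 111, 8.50, 13.3 and 89 in COP DES arrays, against 143, 115, 165 and 230.2 in BN DES arrays. Its difference of -1.65 ± 0.48 (adjusted p = 0.021) was no longer called without COP DES 2 (-1.26), COP DES 3 (-1.34) or BN DES 4 (-1.49).

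Of the receptors, Drd2, the dopamine receptor that restrains lactotrophs, was higher in COP, at 3366, 3690.2, 3843 and 3081 in COP DES arrays, against 1805, 1919, 1069.8 and 1091 in BN DES arrays (1.29 ± 0.15, adjusted p = 1.95e-06), and it differed in the same direction in controls (0.81, adjusted p = 0.00659). Trhr, the receptor for thyrotropin-releasing hormone on thyrotrophs and lactotrophs, was lower, at 1801, 1999, 2226 and 2408 in COP DES arrays, against 5850.2, 5309, 8699.7 and 7834 in BN DES arrays, and its other 2 probe sets were called the same way (-1.43 and -1.58). Agtr1b, an angiotensin II receptor of lactotrophs, averaged 73.0 ± 7.95 in COP DES and 245 ± 40.6 in BN DES, with control means of 5251 in COP and 2895 in BN. Gnrhr, the receptor for gonadotropin-releasing hormone, was higher in COP after DES (1.50 ± 0.20) and in controls (2.49), and a 2nd probe set of it was not called after DES (0.41). Esr1, the estrogen receptor alpha, had dim and overlapping signals, at 73.3, 68.5, 22.5 and 37.4 in COP DES arrays, against 68.5, 92.1, 25.2 and 66.8 in BN DES arrays (-0.25, interval -1.38 to 0.87, exact p = 0.657). Pgr, the progesterone receptor, a target of estrogen, averaged 812 ± 31.5 in COP DES and 873 ± 311 in BN DES (-0.03, interval -0.51 to 0.44). Pou1f1, the transcription factor of lactotrophs, somatotrophs and thyrotrophs, averaged 4551 ± 220.0 in COP DES and 4497 ± 154 in BN DES (0.02, interval -0.15 to 0.18).

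Myc, Pvt1 and A1bg are genes of Ept7, a locus on rat chromosome 7 that bears on estrogen-driven pituitary growth between ACI and BN. Myc gave 885, 654, 629.7 and 618 in COP DES arrays, against 774, 914, 501 and 452 in BN DES arrays, Pvt1 gave 254, 249.7, 206 and 328 in COP DES arrays, against 178, 215, 398 and 274 in BN DES arrays, and A1bg lay between 2.2 and 53.8 on the 8 arrays. None was called (0.12, 0.01 and -0.68, exact p = 0.657, 1 and 0.257), with intervals of -0.35 to 0.59, -0.51 to 0.53 and -1.62 to 0.27.

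For each cell type, a list of marker genes was counted, beside 19.7% of all genes called and a median of -0.01 over all genes. These lists and the pathway lists further on, 36 in all, were chosen with earlier results of these data known. The direction of a list is therefore not independent evidence. The lactotroph list was split: of 11 measured genes, 3 were higher in COP, namely Vip (4.61), Drd2 (1.29) and Gal (1.09), and 3 lower, namely Tac1 (-2.03), Trhr (-1.69) and Agtr1b (-1.54). Tac1, the precursor of substance P, also belongs to the neuropeptides, and Prl, Pou1f1, Esr1, Prlr and Nr4a2 were not called. Of 12 gonadotroph genes, 6 were lower, among them Lhb, the transcription factors Gata2 (-1.23), Nr0b1 (-0.98) and Nr5a1 (-0.83) and Foxl2 (-0.69), and only Gnrhr was higher (list median -0.53). Of 6 thyrotroph genes, 4 were lower, among them Dio2, the deiodinase that activates thyroid hormone (-1.33), and 1 was higher, the thyroid hormone receptor Thrb (0.49). The call of Dio2 was lost without COP DES 4 (-0.96). Their summed signal was 20289.9 to 23768 in COP DES, 36048 to 57526 in BN DES, 36780.3 to 38049.7 in COP controls and 33722 to 36935 in BN controls.

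All 6 corticotroph and melanotroph genes that were measured were lower in COP (list median -1.30), with 5 called within arrays 1 and 2 and 3 within arrays 3 and 4. Tbx19, the transcription factor that switches on Pomc, gave 162, 92.6, 187 and 86.1 in COP DES arrays, against 519.7, 336, 358 and 352 in BN DES arrays. Neurod1, a transcription factor of the same lineage, averaged 275 ± 23.5 in COP DES and 757 ± 41.6 in BN DES. Avpr1b, the vasopressin receptor of corticotrophs, differed by -1.16 ± 0.21, Pcsk2, a prohormone convertase, by -0.86 ± 0.17, and Nr3c1, the glucocorticoid receptor, which many cell types use, by -1.19 ± 0.09. The summed signal of the list was 2304 to 2878 in COP DES, 5069 to 6804 in BN DES, 4419.6 to 4616 in COP controls and 5851 to 6742 in BN controls.

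Of 9 folliculostellate and stem cell genes, 4 were lower in COP and none higher. Aldh1a1, a retinaldehyde dehydrogenase, gave 284, 258, 307 and 310.3 in COP DES arrays, against 1392, 1227, 1121 and 1062 in BN DES arrays (-1.99 ± 0.12, adjusted p = 1.15e-10), with control means of 5569 in COP and 6808 in BN. S100b, the classical marker of these cells, averaged 1352 ± 210.2 in COP DES and 2585 ± 154 in BN DES and was also lower in COP controls (-0.79). Sox2, a stem cell factor, was not called (-0.39, adjusted p = 0.218). Of 8 somatotroph genes, Ghrhr, the receptor for growth hormone-releasing hormone (-1.07), and Dlk1 (-0.71) were lower, and the call of Dlk1 was lost without COP DES 3 (-0.56) or BN DES 1 (-0.56).

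For tissue that lies beside the anterior lobe, of 9 neural lobe and nerve genes only Nefl, a neurofilament, was called (-0.85), and Avp, vasopressin, lay between 5.6 and 54.8 on the 8 arrays. Kdr, the receptor of vascular endothelial growth factor and the only endothelial gene called, gave 1350.3, 1271, 1479.6 and 1587 in COP DES arrays, against 2236, 2318, 2488 and 2362 in BN DES arrays (-0.72 ± 0.13). The lowest signal in the deposited values was 0.1, so no list gene could read 0, which does not show that each was detected.

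**Figure D4:**
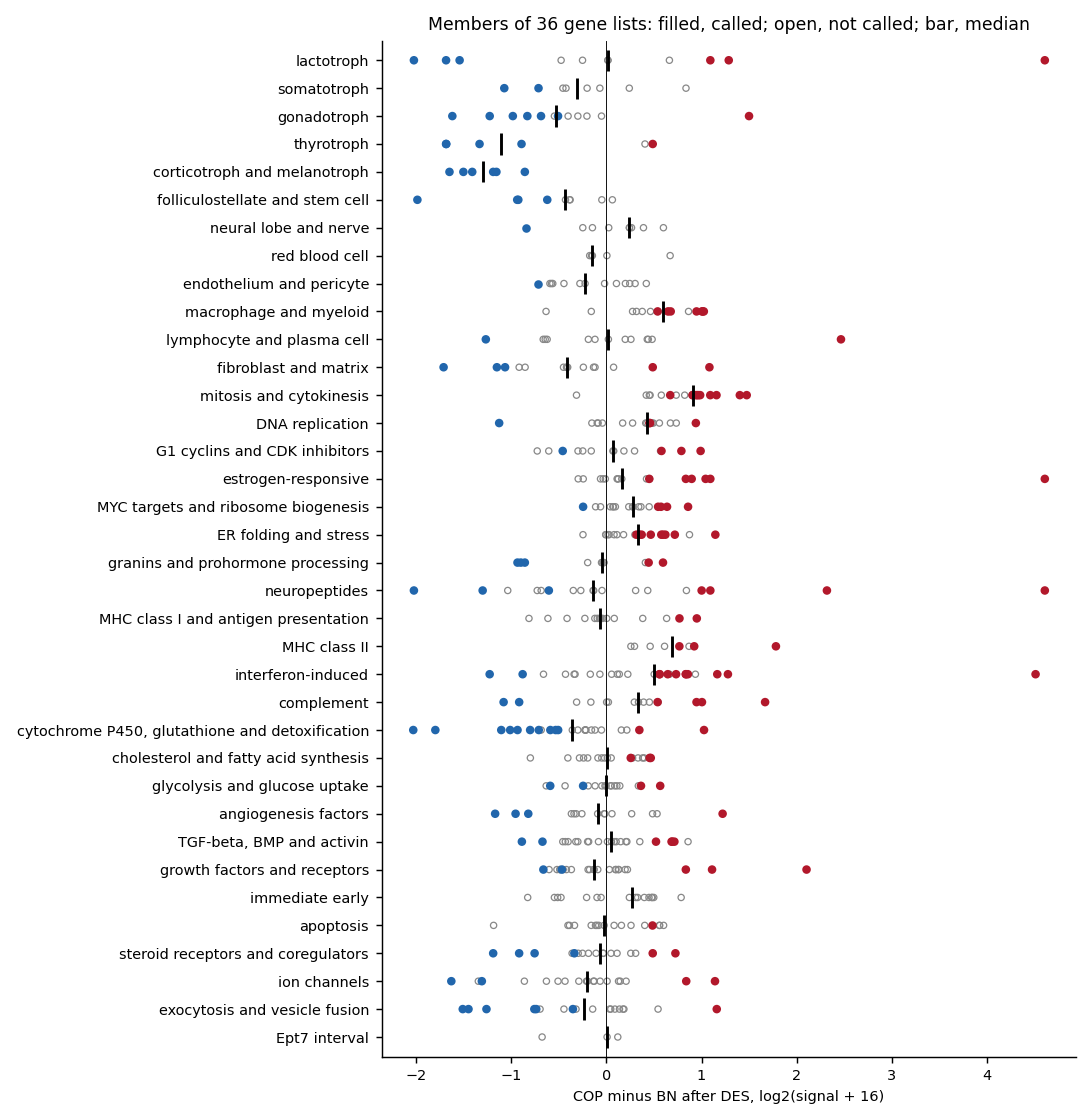
COP minus BN after DES in log2(signal + 16) for the measured members of 36 gene lists, 1 row a list, with called members filled (red higher, blue lower in COP), others open, and a bar at the list median. The corticotroph and melanotroph members all lie to the left of 0, and the 11 called members of the mitosis list all lie to the right.

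Many genes of cell division were higher in COP after DES. Of 19 genes of mitosis and cytokinesis, 11 were higher and none lower, with a list median of 0.91. Mki67, the proliferation antigen, gave 297, 298, 359 and 382 in COP DES arrays, against 143, 149.8, 88 and 73.8 in BN DES arrays (1.48 ± 0.24, adjusted p = 0.000151). In controls it averaged 94.5 ± 14.1 in COP and 213 ± 83.2 in BN. Ube2c, of the anaphase-promoting complex, averaged 391 ± 18.7 in COP DES and 179.7 ± 48.0 in BN DES. Top2a, the mitotic topoisomerase, averaged 298 ± 29.6 in COP DES and 148 ± 24.2 in BN DES, and Ccnb2, a mitotic cyclin, averaged 354 ± 50.8 in COP DES and 175 ± 30.1 in BN DES. The summed signal of the list was 3904 to 4313 in COP DES and 2085 to 2278 in BN DES, against 1791 to 2364 in COP controls and 2174 to 2529 in BN controls. Within arrays 1 and 2, 11 were called higher (median 0.93), and within arrays 3 and 4, 3 were (median 0.81). The difference in response was called for 3 of the 19, all in the direction of COP, against 4.72% of all genes.

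Of the genes of DNA replication 23.5% were called, near the 19.7% of all genes. Of 17, the helicase subunits Mcm2 (0.46), Mcm4 (0.45) and Mcm6 (0.94) were higher and Prim1, the DNA primase (-1.13 ± 0.11), was lower, after DES and in controls. The call of Mcm4 was lost without COP DES 1 (0.39), COP DES 2 (0.44), BN DES 2 (0.42) or BN DES 4 (0.40). Of 14 G1 cyclins and inhibitors, 3 were higher and 1 lower. Ccnd3, a D cyclin, averaged 2833 ± 217 in COP DES and 1449.5 ± 367 in BN DES, and Cdkn1b, the inhibitor p27, averaged 5398 ± 222 in COP DES and 7434 ± 365 in BN DES (-0.46 ± 0.09). Cdkn1a, the inhibitor p21, was higher (0.79), as was Ccnd1 (0.58), whose call was lost without COP DES 4 (0.50) or BN DES 1 (0.45). Other probe sets of Ccnd1 (0.33 and 0.21) and Cdkn1a (0.35) were not called.

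Of 17 genes chosen as responsive to estrogen, 6 were higher and none lower, with a list median of 0.16. Like all 36 lists, this one was put together with results of these arrays known, and its direction is not independent evidence. Gal, the neuropeptide galanin, gave 39696, 43227, 50453 and 48618 in COP DES arrays, against 18279, 18547, 23385 and 25618 in BN DES arrays (1.09 ± 0.15), and its control means were 439.8 in COP and 169.8 in BN. Klk1b3, a kallikrein, averaged 22744 ± 1549 in COP DES and 12199.5 ± 582 in BN DES, and Cgref1 averaged 11110.4 ± 1077 in COP DES and 5419 ± 869 in BN DES. For Gal and Klk1b3 the strain difference was of like size in controls (1.26 and 0.82), and the difference in response was not called (-0.17 and 0.08). Tff3 (0.16) and Calb1 (0.12) were not called after DES.

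Of 20 genes of protein folding and stress in the endoplasmic reticulum, 9 were higher and none lower, with a list median of 0.33. Dnajc3, an inhibitor of the stress kinase PERK, gave 9571, 9207, 11836 and 11069 in COP DES arrays, against 4024, 4189, 5244 and 5415 in BN DES arrays (1.15 ± 0.11, adjusted p = 1e-07). Manf, a secreted stress factor, averaged 14735 ± 1029 in COP DES and 9585 ± 691 in BN DES, and Creld2 averaged 7586 ± 730.0 in COP DES and 4614 ± 586 in BN DES. The central chaperone Hspa5 (0.08) and the stress factor Ddit3 (-0.01) were not called. Of 17 genes of MYC targets and ribosome biogenesis, 4 were higher, namely Odc1 (0.54), Srm (0.64), Polr1b (0.86) and Cad (0.57), and Ldha was lower (-0.25). The call of Cad was lost without COP DES 1 (0.52), COP DES 3 (0.55), BN DES 3 (0.38) or BN DES 4 (0.46), and that of Ldha without COP DES 1, 2 or 3 or BN DES 2, 3 or 4 (-0.25 to -0.20). None of 16 immediate early genes was called after DES in the limma fit, the lowest adjusted p being 0.0633 for Ier2.

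Some markers of macrophages were higher in COP. Of 16, 7 were higher and none lower, with a list median of 0.60. C1qb, a chain of complement C1q made by macrophages, gave 2504, 2922, 2796 and 3345 in COP DES arrays, against 1308, 1164, 1324 and 2046 in BN DES arrays (1.00 ± 0.15, adjusted p = 3.57e-05). In controls the order was the opposite, with 305, 332 and 440.2 in COP, against 752, 701 and 583 in BN (-0.90, adjusted p = 0.00191). Cd68 averaged 421 ± 56.2 in COP DES and 201 ± 27.5 in BN DES, and Laptm5 averaged 908 ± 303 in COP DES and 435 ± 133 in BN DES. In controls 6 of the 16 were lower in COP and none higher, and the difference in response was called for 10, all in the direction of COP. Over all genes 4.37% were called in controls and 4.72% in response. The summed signal was 17583 to 24386 in COP DES, 10203 to 19637 in BN DES, 7972 to 8579 in COP controls and 7398 to 9542 in BN controls, so that the sums of the DES groups overlapped. Within arrays 1 and 2, 10 were higher and none lower, and within arrays 3 and 4, 4 were higher and 1 lower. Of 13 lymphocyte and plasma cell genes, Mzb1 was higher and Cd3e, a T cell receptor subunit, lower (-1.27), and the call of Cd3e was lost without COP DES 2, 3 or 4 or BN DES 1, 3 or 4, with values of -1.33 to -1.09.

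Genes of the MHC class II pathway present antigen on macrophages and B cells. Of 8 class II genes 3 were higher, RT1-Bb (1.78 ± 0.25), RT1-Ba (0.92 ± 0.23) and RT1-Da (0.77 ± 0.24), with a list median of 0.69. Within arrays 1 and 2, 6 were higher, and within arrays 3 and 4, 1 was. The call of RT1-Da was lost without COP DES 1 (0.78), COP DES 4 (0.58), BN DES 1 (0.55) or BN DES 2 (0.66). Of 25 interferon-induced genes, 10 were higher and 2 lower. Irf7, an interferon regulatory factor, gave 589, 533, 454 and 526 in COP DES arrays, against 178, 154, 258 and 356 in BN DES arrays (1.17 ± 0.18), and Mx1 (1.28), Rsad2 (0.83) and Isg15 (0.84) were higher, while Irf1 (-0.88 ± 0.11) and Ifi44l (-1.23 ± 0.15) were lower. The groups of Rsad2 and Isg15 overlapped (adjusted p = 0.0183 and 0.038). Within arrays 1 and 2, 13 of the 25 were higher, and within arrays 3 and 4 only Mx2 was, while Irf1 and Ifi44l were lower in both. The part of array number in these counts was not tested. Of 16 genes of the class I pathway list, which did not hold RT1-A, 2 were higher, Tapbp, tapasin (0.95 ± 0.13), and Tap1, a peptide transporter (0.77 ± 0.19). Of 15 complement genes, the 3 chains of C1q and Cfd, factor D (1.67), were higher, and Cd55 (-1.08) and Serping1 (-0.92), both inhibitors of complement, were lower. The call of C1qa was the weakest of these (adjusted p = 0.0454), with overlapping groups.

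RT1-Ba, the alpha chain of class II molecule RT1-B, had 4 probe sets that disagreed, a fact noticed after their values were seen. The one with the highest mean log2(signal + 16), which stood for the gene in the counts above, averaged 828 ± 311 in COP DES and 415 ± 106 in BN DES. A 2nd averaged 278 ± 83.4 in COP DES and 40.2 ± 13.8 in BN DES (2.37 ± 0.43). The other 2 gave the opposite order. The probe set 1381593_x_at read 29.8, 36, 16.2 and 143 in COP DES arrays, against 2243, 2536, 3760.4 and 5271 in BN DES arrays (-5.79 ± 0.41, adjusted p = 1.44e-09), the largest difference among the 31042 probe sets, and 1392334_at differed by -4.95 ± 0.44. Both had higher mean signals over all arrays than the probe set that stood for the gene, and either would have ranked RT1-Ba before Vip and Hba-a3 in size. Both also differed in controls (-6.43 and -6.45) and averaged 49 ± 31.0 and 153 ± 81.0 in ACI DES. Which of the 4 follows the level of the transcript was not tested.

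**Figure D5:**
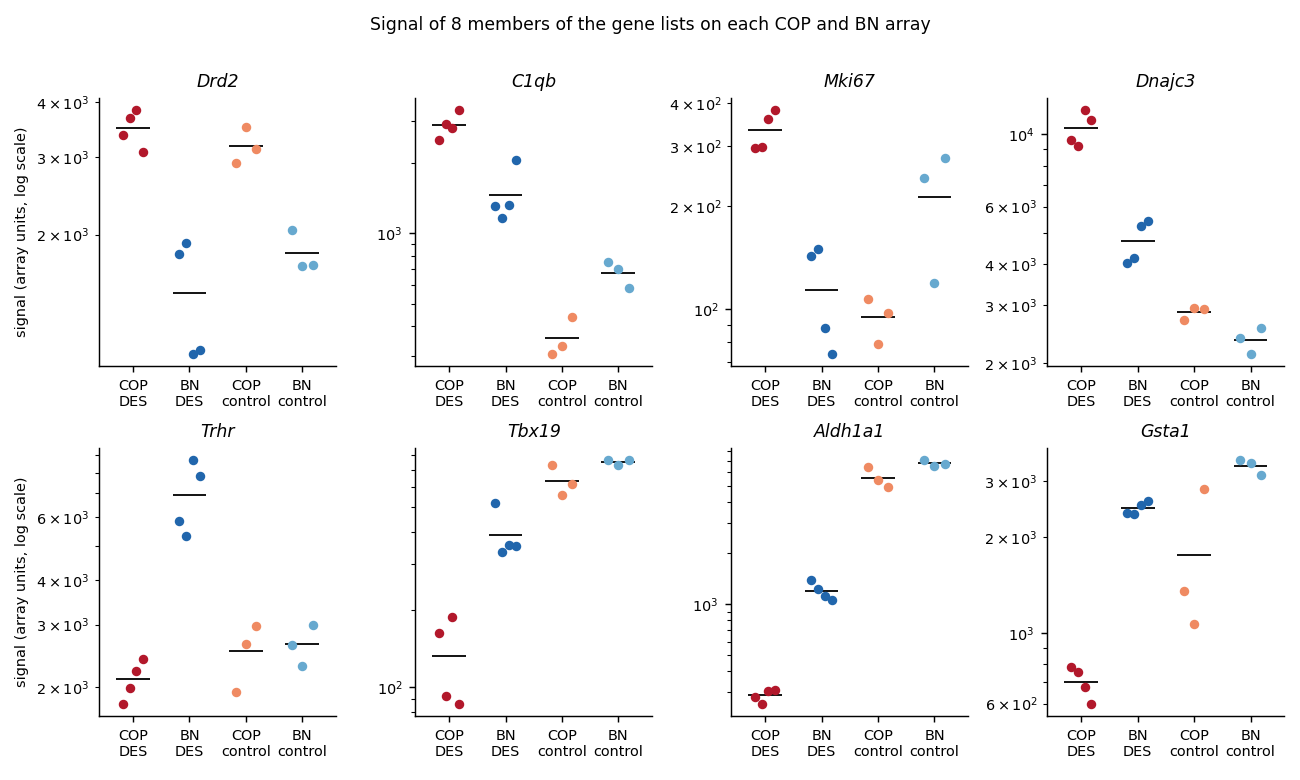
Signal on a log axis (array units) of 8 members of the gene lists, with 1 point for each COP DES, BN DES, COP control and BN control array and a line at the group mean. Drd2, C1qb, Mki67 and Dnajc3 are higher on all 4 COP DES arrays than on all 4 BN DES arrays, and Trhr, Tbx19, Aldh1a1 and Gsta1 are lower.

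Of 25 detoxification enzymes, 10 were lower and 2 higher, with a list median of -0.36, and 4 were also called lower in controls (median -0.40). The difference in response was called for none of the 25, against 4.72% of all genes, so nothing is read from this absence. Gsta1, a glutathione transferase, gave 780.0, 752, 674 and 599 in COP DES arrays, against 2388, 2364, 2528 and 2603 in BN DES arrays (-1.80 ± 0.21). Ephx2, the soluble epoxide hydrolase, averaged 19.2 ± 9.98 in COP DES and 128 ± 38.9 in BN DES, with control means of 24.1 in COP and 272 in BN. Sult1a1, a sulfotransferase, differed by -1.01 ± 0.22 and Cyp1b1, an estrogen hydroxylase, by -0.94 ± 0.31 (adjusted p = 0.0447). In contrast, Gstt2 was higher after DES (1.03 ± 0.15) and in controls (1.07).

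Several genes of regulated secretion were lower. Of 18 genes of exocytosis, 6 were lower and 1 higher. Rab3b, a Rab of secretory vesicles, gave 262, 277, 172 and 256 in COP DES arrays, against 593, 656, 661 and 483 in BN DES arrays (-1.26 ± 0.16), below control means of 2947 in COP and 2504 in BN. Sytl4, granuphilin, averaged 253 ± 59.4 in COP DES and 753 ± 164 in BN DES, Stx1a, a syntaxin of membrane fusion, differed by -1.45 ± 0.33, and Rab27b was the gene that was higher (1.16). Another probe set of Stx1a was not called (-0.28). Without BN DES 3, where 16.2% of all genes were called (8.07% higher, 8.11% lower in COP), the counts were 6 lower and 0 higher. Of 11 granins and processing genes, Cadps, a priming factor of dense-core vesicles (-0.94 ± 0.09), Pcsk1n, an inhibitor of prohormone convertase (-0.90 ± 0.17), and Pcsk2 were lower, and the granins Chga (0.59 ± 0.09) and Scg3 (0.44 ± 0.08) were higher.

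The neuropeptides went both ways. Of 18, 4 were higher, Vip (4.61), Nppc (2.32), Gal (1.09) and Nmb (1.00), and 3 lower, Tac1 (-2.03), Guca2b (-1.30) and Penk (-0.61). Guca2b, uroguanylin, gave 3293, 2687, 3012 and 2201 in COP DES arrays, against 7113, 6184, 6649 and 7517 in BN DES arrays, and both groups lay far above the control means of 58.4 in COP and 54.1 in BN. Cartpt, the CART prepropeptide, was called in controls (4.62) but not after DES (0.31, adjusted p = 0.667), and its difference in response was -4.32 (adjusted p = 5e-05).

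Of 24 growth factors and receptors, 3 were higher and 2 lower. That share, 20.8%, was close to the 19.7% of all genes called. So were those of the ion channels (21.1%), DNA replication (23.5%) and glycolysis (23.5%) lists. Not far from it were the somatotroph (25%), cholesterol and fatty acid synthesis (17.6%) and lymphocyte and plasma cell (15.4%) lists. The TGF-beta, BMP and activin (26.1%) and angiogenesis (26.7%) lists lay little further above. Nothing is read from these counts. Areg, amphiregulin, a ligand of the epidermal growth factor receptor, gave 68.6, 70.7, 100.4 and 106 in COP DES arrays, against 4.50, 1, 16.5 and 10.8 in BN DES arrays (2.10 ± 0.35, adjusted p = 0.000205), all BN values lying near the lower end of the array. Fgf1, a fibroblast growth factor, was higher (1.11 ± 0.37, adjusted p = 0.0443), with overlapping groups. The binding proteins of insulin-like growth factors went both ways, with Igfbp4 higher (0.83 ± 0.18) and Igfbp2 (-0.66 ± 0.16) and Igfbp5 (-0.47 ± 0.11) lower. Of 23 genes of TGF-beta, BMP and activin signaling, 4 were higher, among them Bmp6 (0.69 ± 0.15) and Tgfb3 (0.52 ± 0.14), whose call was lost without COP DES 1 (0.44), and 2 were lower, Bmp7 (-0.89 ± 0.21) and Id2 (-0.67 ± 0.17). Another probe set of Id2 was not called (-0.13).

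Of 15 angiogenesis factors, Hif1a, the hypoxia-inducible factor, was lower at 9218, 9899, 8961 and 10289.8 in COP DES arrays, against 14562, 14124, 22853 and 17540.0 in BN DES arrays (-0.82 ± 0.13), with control means of 5502 in COP and 6353 in BN. Vegfa was not called (-0.09, adjusted p = 0.702). Pttg1, securin, was higher (1.22) with overlapping groups, and Pgf (-1.17) and Angpt2 (-0.96) were lower. The call of Pttg1 was lost without COP DES 1 (1.01) or BN DES 4 (0.92), and that of Pgf without COP DES 3 or 4 or BN DES 1, 2 or 3 (-1.18 to -0.88). The call of Angpt2 was lost without COP DES 1 or 3 or BN DES 1, 3 or 4 (-0.95 to -0.78).

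Of 15 fibroblast and matrix genes, 2 were higher and 3 lower. Col1a2, a chain of type I collagen, gave 1273, 1133, 727 and 1011 in COP DES arrays, against 566, 586, 419.5 and 352 in BN DES arrays (1.08 ± 0.19), and Timp1, a protease inhibitor, averaged 3234 ± 110.3 in COP DES and 2307 ± 183 in BN DES, while Col1a1, the partner chain, was not called (-0.42, adjusted p = 0.386). Mgp, matrix Gla protein (-1.07 ± 0.20), and Lum, lumican (-1.71 ± 0.40), were lower, with Lum at 93.8, 82.8, 81.8 and 165 in COP DES arrays, against 152, 247, 1039 and 460.5 in BN DES arrays, so that its highest COP value exceeded its lowest BN value. Of 19 ion channel genes, Scn9a, a sodium channel (-1.63 ± 0.20), and Kcnj6, a potassium channel (-1.31 ± 0.26), were lower, and Kcnk1, a 2-pore potassium channel, was higher (1.14 ± 0.16), as was Cacna2d1 (0.84). Other probe sets of Kcnj6 were not called (-0.07, -0.05 and -0.87). The Cacna2d1 call was lost without COP DES 3 (0.66), COP DES 4 (0.69), BN DES 1 (0.79) or BN DES 2 (0.77). Of 18 steroid receptors and coregulators, 4 were lower, among them Nr3c1, Nr3c2, the mineralocorticoid receptor (-0.76 ± 0.14), and Rxrg (-0.92 ± 0.18), and 2 higher. Of 17 genes of cholesterol and fatty acid synthesis 3 were higher, namely Sc5d (0.47), Fasn (0.45) and Acly (0.26), of which Fasn (0.30 to 0.49) and Acly (0.21 to 0.26) lost the call without any 1 of COP DES 1, 2, 3 or 4 or BN DES 3 or 4. Of 17 glycolysis genes 2 were higher and 2 lower, with Eno2, neuronal enolase, at 0.57 ± 0.08. The call of Slc2a1, a glucose transporter (0.36), was lost without COP DES 1, 3 or 4 or BN DES 3 (0.22 to 0.37). Of 17 apoptosis genes only Gadd45a was called (0.48).

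Probe sets without a gene symbol held large differences too. The probe set 1378052_at read 829, 1086, 1107 and 1065 in COP DES arrays, against 53.9, 43, 42.4 and 73.2 in BN DES arrays (3.92 ± 0.18, adjusted p = 2.86e-12), and 1369110_x_at averaged 2375 ± 426 in COP DES and 215 ± 49.9 in BN DES. In the other direction, 1391552_at averaged 244 ± 48.8 in COP DES and 2925 ± 934 in BN DES, and 1382093_at averaged 76.0 ± 21.6 in COP DES and 759.8 ± 71.4 in BN DES. All 4 were called with the same sign in controls, at 3.01, 2.33, -3.20 and -2.77.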

How the data were processed

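Anterior pituitary RNA of 3 rat strains, with and without DES, was hybridised to 21 single-color Affymetrix arrays. The deposited values are intensity signals on a linear scale, 1 for each probe set, from 0.1 to 71813.9. Their trimmed mean, leaving out 2% at each end, was 500.1 to 500.2 on every array, so the authors had scaled the arrays alike. How probe signals were summarized is not given in the sources used here, and each array's precision is limited by the number of arrays. All 31042 probe sets other than Affymetrix controls entered limma 3.58.1 (R 4.3.3) as log2(signal + 16), with 6 group means over all 21 arrays, a mean-variance trend and Benjamini-Hochberg adjustment over all probe sets, and no filter on low signals. The fit had 22.2 degrees of freedom in total. Correlations between arrays used probe sets that exceeded an array's 40th percentile on 3 or more arrays.

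GEO's platform annotation gave 1 gene symbol to 20826 probe sets, several to 436 and none to 9780. Of several probe sets of a gene, that with the highest mean log2(signal + 16) over all arrays was used, which left 14217 genes. The 36 lists held 572 genes, of which 508 were measured. Members and lists were chosen with earlier results of these data known. Named genes were, for each sign, the 12 with the largest called difference that did not overlap and were above the 40th percentile, the 8 with the largest called difference in response among genes also called after DES, the 6 with the largest difference also called in controls but not in response, a set of hormones, receptors and Ept7 genes, up to 4 members of each list with the smallest adjusted p, and the 2 largest among probe sets without a symbol. Others named to complete a count or list were chosen after their values were seen. Exact permutation tests were two-sided over the 70 splits of 8 arrays. Alternatives changed the filter, the amount added, the scaling between arrays, the arrays in the fit, the variance model, a block and each array left out in turn. The fitting code was tested on simulated data in which 200 of 31042 probe sets were changed. It called 152, of which 14 were false. Changes of 0.5, 1 and 2 in log2 were recovered in 32.8%, 74.6% and 100% of cases. Python 3.11.15 with numpy 2.4.6, pandas 2.3.3 and matplotlib 3.10.9 made the summaries and plots.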

Additional observations from a re-analysis of the deposited data

Results flagged for a closer look

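Among the named genes, 62 had a difference in response, (COP DES minus COP control) minus (BN DES minus BN control), that passed its own test in the limma fit at an adjusted p under 0.05. Over all 14217 genes the share that passed was 4.72%. Part of the named genes were picked because this difference was called, so the count of 62 follows in part from that choice. These differences share the 8 DES arrays with the strain difference after DES. Values are on the scale of log2(signal + 16), and a positive one lies in the direction of COP. Among the genes with the larger positive values were Vip (5.19), Nppc (3.29), Drd4 (2.85), Mzb1 (2.81), Ngef (2.80), Cbr3 (2.77), Tnfrsf11b (2.77), Plaur (2.75), Sox7 (2.47), Mki67 (2.46), Laptm5 (2.36) and Spink4 (2.28). They include neuropeptides, receptors and markers of macrophages. Smaller positive values were those of C1qc (1.94), C1qb (1.90), RT1-Bb (1.79), RT1-Da (1.70), Irf7 (1.64), Atp10d (1.54), Cd68 (1.46), RT1-Ba (1.42), Mcm6 (1.23), Col1a2 (1.20), Ccnb2 (1.17), Timp1 (1.12), Dnajc3 (0.87), Tgfb3 (0.85), Tapbp (0.81), Odc1 (0.77), Creld2 (0.68), Manf (0.67), Mcm2 (0.59) and Chga (0.56). On the negative side, the larger values were those of Olfm3 (-4.11), Sema3e (-3.53), Cyp4a8 (-3.19), Abca8a (-3.13), Spock3 (-2.85), Dcn (-2.81), Pkhd1l1 (-2.81), Rflna (-2.57), Lum (-2.43) and Agtr1b (-2.40). Dcn and Lum are matrix proteoglycans, and Agtr1b is an angiotensin II receptor. Smaller negative values were those of Igfbp2 (-1.96), Lhb (-1.93), Tshb (-1.80), Aldh1a1 (-1.69), Trhr (-1.61), RT1-M3-1 (-1.51), Rab3b (-1.49), Hba-a3 (-1.46), Guca2b (-1.39), Sytl4 (-1.38), Scn9a (-1.34), Neurod1 (-1.32), Tbx19 (-1.26), Pcsk1n (-1.21), Nefl (-0.92), Kdr (-0.90), Fshb (-0.76), Cadps (-0.74), Ldha (-0.57) and Nr3c1 (-0.56), which include hormone subunits and corticotroph factors. Cartpt (-4.32), Calb1 (-1.49), Mx1 (2.70) and Rsad2 (1.33), named outside the rule for genes, had called differences in response as well, that of Cartpt more negative than any above.

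For 23 of the named genes or probe sets 1 array of a group of 4 lay far from the other 3, by a gap between neighbours that chance would exceed in about 1 in 20 groups. Among the COP DES arrays, the signals that stood apart were 7.60 for Lpal2 on COP DES 3, 28.3 for Fstl5 on COP DES 1, 885 for Myc on COP DES 1, 219.6 for Ghrhr on COP DES 1, 38.8 for Flt1 on COP DES 4, 63.1 for Cd3e on COP DES 1, 2759 for Mgp on COP DES 4, 364 for Ube2c on COP DES 4, 565 for Polr1b on COP DES 1, 973 for RT1-Bb on COP DES 3, 744 for Gstt2 on COP DES 3 and 829 for 1378052_at on COP DES 1. Among the BN DES arrays they were 30.4 for Cbr3 on BN DES 4, 442 for Brcc3-ps7 on BN DES 2, 20.8 for Tnfrsf11b on BN DES 2, 11.6 for Rflna on BN DES 3, 519.7 for Tbx19 on BN DES 1, 17 for Epb42 on BN DES 1, 633 for Laptm5 on BN DES 4, 513 for Mcm2 on BN DES 2, 573 for RT1-Ba on BN DES 4, 514 for Slc2a1 on BN DES 3 and 447 for Ier3 on BN DES 4. The 179 named genes and probe sets give a pair of groups each, so at that rate chance alone would give a count of this order. Nothing is read from the 23.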

How the results depend on the processing

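Of 179 named genes and probe sets, 145 were called after DES, 93 of them with the same sign in every alternative that was run, and 20 lost the call when 1 array was left out. No called one turned its direction. After DES 4543 probe sets were called, against 2552 with only the 8 DES arrays in the fit and 3713 to 4601 when each array was left out in turn. Between the controls 1108 were called, against 1741 within arrays 1 and 2, 249 for the number 3 alone, where 1 array of each strain is assumed to vary like the other groups, and 686 to 856 when each array was left out (732 without COP control 1, 710 without COP control 2 and 686 without BN control 1). For the difference in response 944 were called, against 627 with only these groups, 229 within the higher numbers and 600 to 1154 when each array was left out, 600 being without COP control 2. The labels number the arrays 1 to 4 in each DES group and 1 to 3 in each control group, but same-numbered COP and BN arrays deviated together with correlations of only 0.24, 0.15, 0.06 and 0.20, so the number was not taken as a pairing. COP and BN arrays of the same set of numbers, 1 and 2 or 3 and 4, correlated at 0.059 to 0.24, and arrays of different sets at -0.26 to -0.077. With it as a replicate block, 5592 probe sets were called after DES, 1466 in controls and 1498 in response, and with the sets 1 and 2 against 3 and 4 as a block 5752 after DES, 1542 in controls and 1613 in response.

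Directions turned only where a difference was not called. Within arrays 1 and 2 these were Gh1 (0.032), Cga (0.019), Myc (-0.14) and Hbb (0.20), and within arrays 3 and 4 Prl (-0.22), Pgr (0.42), Pvt1 (-0.33) and Slc4a1 (0.42). Quantile normalization turned Pou1f1 (-0.014), and median centring turned Pgr (0.017). With 1 array left out, the range was -0.11 to 0.20 for Prl, -0.013 to 0.042 for Pou1f1, -0.19 to 0.12 for Pgr, -0.039 to 0.29 for Myc, -0.15 to 0.21 for Pvt1, -0.50 to 0.19 for Hbb and -0.74 to 0.17 for Slc4a1. The cause was not tested. Signals near the lower end of the array, and the number of arrays, limit these comparisons.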

Other observations

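Among 4525 genes with 2 or more probe sets, 311 had at least 2 called after DES. For 275 of these the called probe sets agreed in direction, and for 36 they did not. Other probe sets of a named gene are given above for some genes only, so their absence elsewhere does not mean agreement. Mx1, an interferon-induced GTPase related to Mx2, was lower in COP controls than in BN controls (-1.42) and higher after DES (1.28), with a difference in response of 2.70. The 3 COP controls averaged 4887 for Cartpt, against 178 for the 3 BN controls, while after DES the means were 359 in COP and 284 in BN.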
